A study of Rattus norvegicus with 19 samples.

Results

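The axonal transport motors of the rat dorsal root ganglion were examined here: the kinesins, the kinesin light chains, cytoplasmic dynein and dynactin. Members were all probe sets whose platform gene symbol begins with Kif and a digit, Klc and a digit, Dync1, Dynll, Dynlt, or Dctn and a digit, except Kif3a, Kif3b, Kif3c and Kif17. They numbered 71 probe sets of 43 genes, among 31042 probe sets in all. The data came from single T11 ganglia of adult female Sprague-Dawley rats, 1 expression array per rat. There were 7 operated rats killed on day 14, 7 operated rats killed on day 7, and 5 naive rats without surgery. In operated rats the cutaneous nerves of segments T9, T10, T12 and T13 were cut on one side and the T11 nerves were left whole, a model in which spared T11 sensory axons sprout collaterally into the denervated skin. The submitters took day 7 as the initiation and day 14 as the maintenance of this sprouting. The controls were unoperated, so an effect of surgery itself and one of lost neighbouring innervation cannot be told apart. A ganglion also holds many cell types, so in these bulk values fewer cells of a type and less RNA per cell cannot be told apart.

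Sensory neurons have some of the longest axons in the body, and motors carry nearly everything that moves along them. Most kinesins walk toward the plus ends of microtubules, which in axons point away from the cell body, and so bring vesicles, mitochondria and channels outward. Cytoplasmic dynein walks the other way with its partner dynactin and returns endosomes with their neurotrophin receptors, old organelles and injury signals to the cell body. A growing or sprouting axon depends on both directions.

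Not every member serves axonal transport. Of the 43 genes, 10 (with 13 probe sets) encode kinesins of the mitotic spindle or of cytokinesis, such as Kif11, Kif15 and Kif20b, and these are described apart. Kif7 and Dynlt2b are best known from cilia. Kif13b, Kif21b, Dynll1 and Dctn3 had no probe set with a symbol of their own and were not analysed here as single genes. The 6 probe sets that list a motor beside other genes (4 of them Kif1b, and 1 each of Dynll1 and Dctn3) were left out, and their day 14 differences from naive lay between -0.05 and 0.25 log2 units. Sensory neuron markers were high on every array: the mean of the 11 measured genes of 12 lay between 12.28 and 12.53 log2 units on day 14, between 12.33 and 12.60 on day 7 and between 12.38 and 12.46 in naive rats. All values are deposited log2 levels, on which 1 unit is a doubling. Array number limits the precision, and the median standard error of a motor difference from naive was 0.08. Whether levels differ between probe sets of different genes was not read, since probes bind unequally.

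3 arrays carried raised skeletal muscle transcripts: day 14 replicate 2 with a list mean of 8.22, day 7 replicate 7 with 9.64 and naive replicate 1 with 9.81, where the other arrays lay between 6.48 and 7.27. Day 14 replicate 3 had the lowest sensory neuron mean of all arrays (12.28) and the highest mean of 6 injured-neuron genes (11.34). That injured-neuron mean ranged from 8.09 to 11.34 on day 14, from 8.0 to 10.88 on day 7 and from 7.78 to 8.14 in naive rats. The difference between 3' and 5' control signal, which follows RNA integrity and amplification, lay between 3.18 and 3.36 on day 14, between 3.16 and 3.38 on day 7 and between 3.26 and 3.69 in naive rats, highest in naive replicates 3 (3.52) and 4 (3.69). Their part in the results was not tested beyond the settings named beside each result.

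Against naive, 1 of the 71 passed the limma test on day 14 (adjusted p under 0.05, Benjamini-Hochberg), and it was higher: the Kif16b probe set 1394535_at. Over all probe sets 0.139% passed in either direction, 0.0258% as higher and 0.113% as lower. On day 7 none of the 71 passed against naive, beside 0% of all probe sets, and none passed between day 14 and day 7, beside 0% again. At an unadjusted p under 0.05, 7 motor probe sets were higher and 6 lower on day 14 against naive, 18.3% in either direction beside 19.7% of all probe sets (10.9% higher and 8.79% lower). On day 7 there were 4 higher and 2 lower, 8.45% beside 8.7% of all probe sets (3.69% higher and 5% lower). Between day 14 and day 7 there were 3 higher and 2 lower, 7.04% beside 11.3% of all probe sets (7.11% higher and 4.22% lower). In that comparison markers of fibroblasts and Schwann cells also differed at an unadjusted p under 0.05, though none was called. Of 7 fibroblast probe sets 7 were higher on day 14 than on day 7 (median 0.32), and all 7 had lower means on day 7 than in naive rats (median -0.21). Of 8 Schwann cell probe sets 5 were higher on day 14 than on day 7 (median 0.17), and all 8 had lower means on day 7 than in naive rats (median -0.22). By the same measure 2 of 9 macrophage probe sets were higher on day 14 than on day 7. None of 5 satellite glia and none of 4 endothelium probe sets differed. Their part in the motor differences was not tested.

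The median log2 difference over the 71 probe sets was 0.0079 for day 14 against naive, -0.011 for day 7 against naive and 0.0099 for day 14 against day 7. The same medians over all probe sets were 0.021, 0.0071 and 0.011. The quartiles of the motor differences on day 14 were -0.07 and 0.07, beside -0.08 and 0.10 over all probe sets. The widest differences on day 14 were those of the Klc1 probe set 1388125_a_at (0.61) and the Kif13a probe set 1390319_at (-0.51). The heatmap of every motor probe set on every array shows that few rows changed colour between groups.

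**Figure D1:**
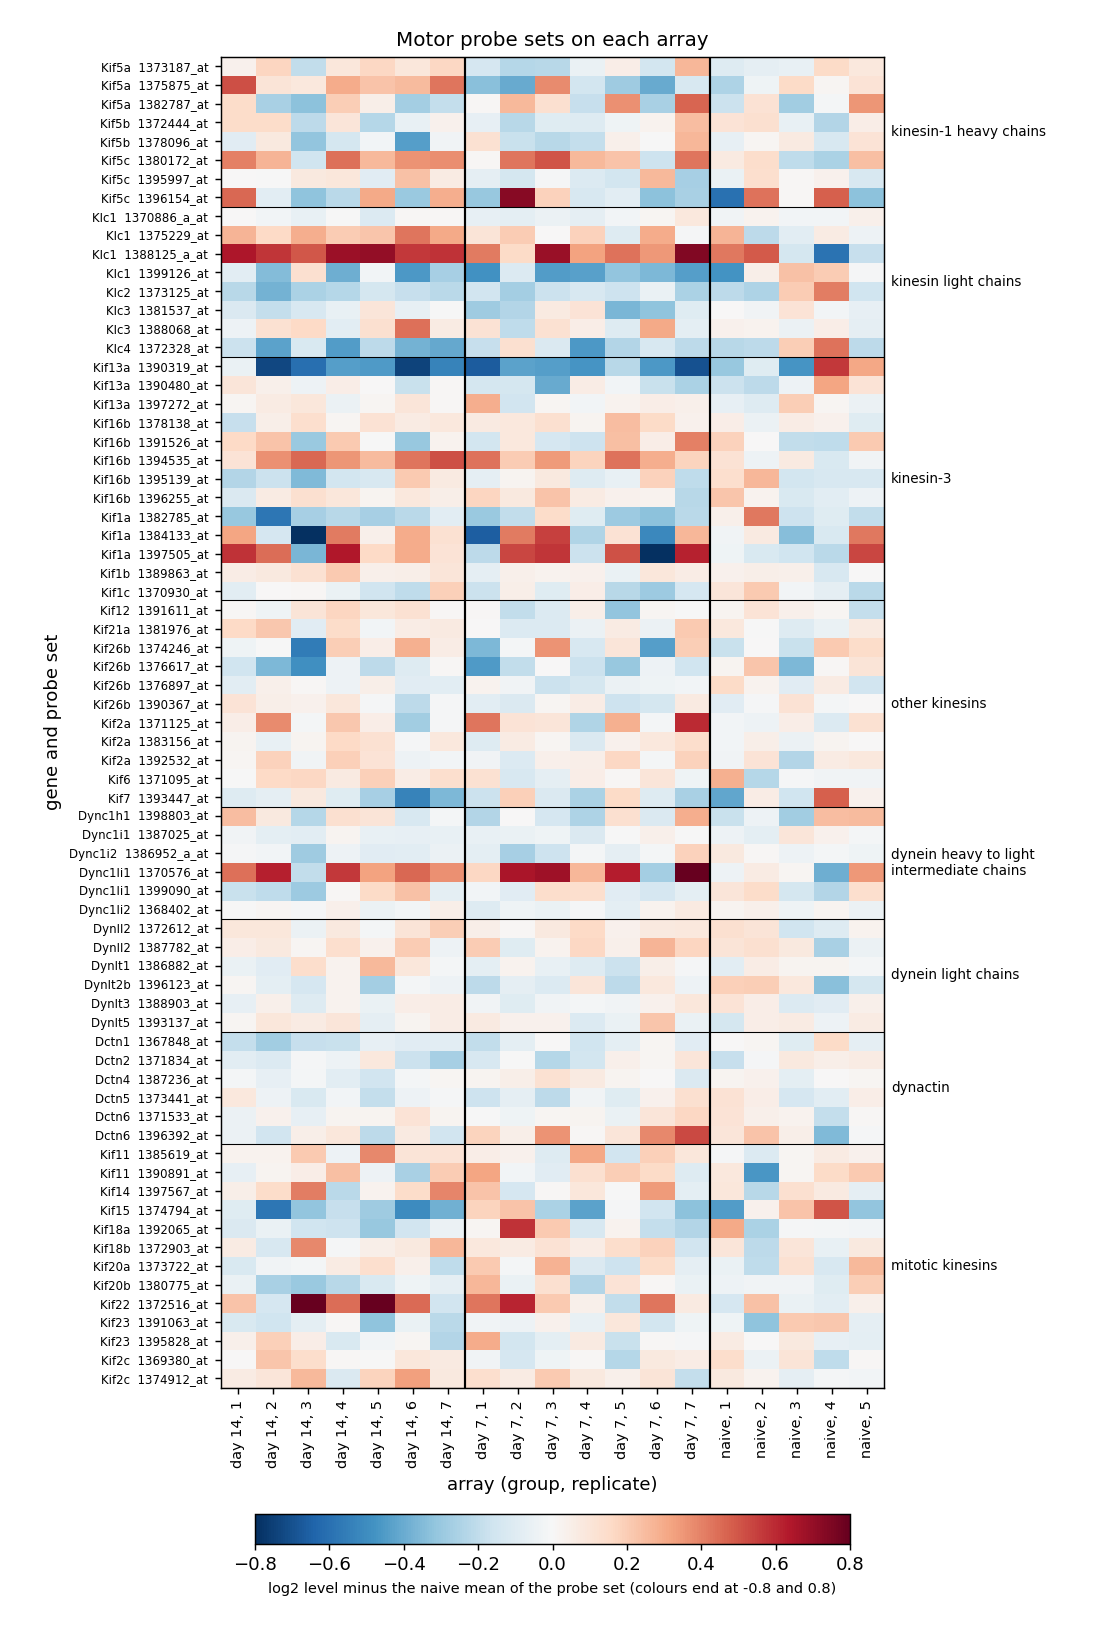
Each row is 1 of the 71 motor probe sets, ordered by role, and each column 1 array (day 14, day 7, then naive). Colour gives the log2 level minus the naive mean of that probe set, with colours ending at -0.8 and 0.8. Most rows stay pale in all 3 groups, while Klc1 1388125_a_at is red on all day 14 arrays and Kif13a 1390319_at is blue on most arrays of operated rats.

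The kinesin-3 family carries vesicles and endosomes over long distances. Kif16b moves early endosomes through a lipid-binding domain in its tail and helps return receptors to the surface. Its probe set 1394535_at had values of 6.71, 6.97, 7.06, 6.95, 6.85, 7.03 and 7.12 on day 14, with 7.04, 6.80, 6.94, 6.78, 7.03, 6.89 and 6.78 on day 7. Naive rats had 6.72, 6.56, 6.67, 6.48 and 6.57. On day 14 all rats but replicate 1 lay above the highest naive rat, and on day 7 all 7 did. The difference was 0.36 ± 0.07 (SE) log2 units on day 14, with a 95% interval of 0.21 to 0.50, a fold of 1.28 and a limma adjusted p of 0.0483. On day 7 it was 0.29 ± 0.07 (SE), with an interval of 0.15 to 0.44 and a limma adjusted p of 0.336, and it did not pass. Between day 14 and day 7 it was 0.06 ± 0.07 (SE), with an interval of -0.07 to 0.20 (limma adjusted p = 0.757). Both comparisons with naive use the same 5 naive rats, so they are not independent. This was the 1 motor probe set whose day 7 and naive values did not overlap, 1.41% of the motors, where 0.19% of all probe sets lay wholly above naive.

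The Kif16b call stood close to the threshold. The difference kept its sign under all 23 alternatives, between 0.32 and 0.40, but it passed in 5 of them, with limma adjusted p from 0.0311 to 0.605. With the first letters of the rats' codes as a block, described next, it was 0.34 ± 0.11 (SE) (limma adjusted p = 0.605). With the 3' minus 5' signal as a covariate it was 0.33 ± 0.08 (SE) (limma adjusted p = 0.259), and without the 3 muscle-high arrays 0.38 ± 0.08 (SE) (limma adjusted p = 0.0546). It also failed without any 1 of naive replicates 2, 3, 4 and 5 or of day 14 replicates 2 to 7, and passed without naive replicate 1 or day 14 replicate 1. The labels give each rat a code that begins with AI, AJ or AK, with no stated meaning. Within AJ the Kif16b mean was 7.01 on day 14 (2 rats) and 6.91 on day 7 (5 rats), against 6.70 in naive rats (2). Within AK it was 6.85 on day 7 (2 rats), against 6.54 in naive rats (3). The 5 AI rats were all of day 14 and averaged 6.94.

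The other 4 Kif16b probe sets lay nearer to naive. Their differences from naive lay between -0.11 and 0.04 log2 units on day 14, and on day 7 between -0.02 and 0.11. The brightest of them, 1391526_at, had a wide day 14 interval of -0.24 to 0.25. The differences of separate probe sets were not tested against each other. Where on the transcript each probe set lies was not analysed here.

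Of the rest of the kinesin-3 family, Kif13a, a carrier of endosomal and Golgi vesicles, had the widest fall in value. Its probe set 1390319_at ranged from 5.41 over a median of 5.62 to 6.10 on day 14, and from 5.45 over 5.69 to 5.93 on day 7. The naive values were 5.85, 6.05, 5.68, 6.71 and 6.46. The groups overlapped, with 4 of 7 day 14 arrays and 2 of 7 day 7 arrays below every naive array. The difference was -0.51 ± 0.15 (SE) on day 14 (limma adjusted p = 0.103) and -0.48 ± 0.15 (SE) on day 7 (limma adjusted p = 0.426). Within AJ the means were 5.63 on day 14 (2 rats) and 5.65 on day 7 (5 rats), against 5.76 in naive rats (2). Within AK they were 5.71 on day 7 (2 rats), against 6.41 in naive rats (3). Without naive replicate 4 the day 14 difference was -0.37. The other Kif13a probe sets lay at 0.00 and 0.04 on day 14, and at -0.15 and 0.04 on day 7.

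Kif1a, the main carrier of synaptic vesicle precursors and dense-core vesicles in axons, gave 3 differing readings. Probe set 1382785_at had a lowest, median and highest value of 6.96, 7.27 and 7.45 on day 14 and of 7.21, 7.32 and 7.68 on day 7. In naive rats it had 7.57, 7.96, 7.37, 7.44 and 7.34. On day 14, 6 of 7 arrays lay below the lowest naive array, and the difference was -0.28 ± 0.10 (SE), which did not pass (limma adjusted p = 0.162). The same probe set differed by -0.18 on day 7. The brighter Kif1a probe set 1384133_at differed by 0.03 on day 14, but its 95% interval of -0.42 to 0.48 was wide, because rats of the same group differed by over 1 log2 unit. The remaining Kif1a probe set, 1397505_at, differed by 0.27 on day 14 and 0.12 on day 7. Kif1b, which carries mitochondria and synaptic vesicle precursors, differed by 0.09 on day 14 and 0.02 on day 7. Its probe set 1389863_at had a mean level of 4.46, below the 5.21 under which probe sets are taken as dim, so little can be read from it. Kif1c differed by -0.04 and -0.12.

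**Figure D2:**
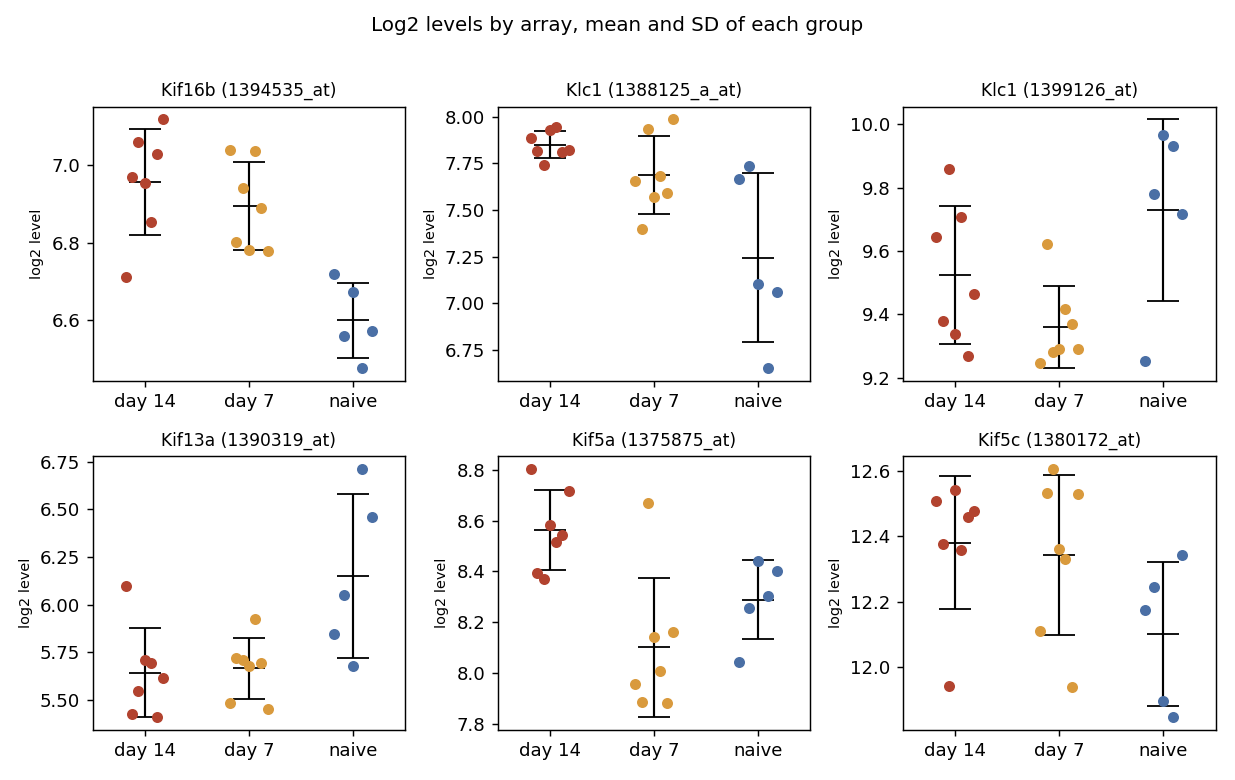
Log2 levels on every array for 6 motor probe sets, with points for rats and bars for the group mean and SD (7 rats on day 14, 7 on day 7, 5 naive). The Kif16b day 7 points all lie above the naive points, the Klc1 1388125_a_at day 14 points span 7.74 to 7.95 against a naive spread of 6.65 to 7.74, and the Kif5a 1375875_at day 7 points lie low except replicate 3 at 8.67.

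Kinesin light chains link the kinesin-1 motor to its cargo and hold it inactive when it is empty. Klc1, the neuronal light chain, gave the largest motor difference and the least uniform one across its probe sets. Probe set 1388125_a_at had 7.89, 7.82, 7.74, 7.93, 7.95, 7.81 and 7.82 on day 14, with 7.66, 7.40, 7.93, 7.57, 7.68, 7.59 and 7.98 on day 7. Naive rats had 7.67, 7.74, 7.10, 6.65 and 7.06. The day 14 rats lay close together and all above the highest naive rat, the lowest by under 0.01 log2 units, while the naive rats fell into a higher pair (replicates 1 and 2) and a lower trio. This was the 1 motor probe set whose day 14 and naive values did not overlap, 1.41% of the motors, where 1.07% of all probe sets lay wholly above naive.

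The Klc1 difference on day 14 was 0.61 ± 0.14 (SE) log2 units, with a 95% interval of 0.31 to 0.90 and a fold of 1.52, and it missed the threshold (limma adjusted p = 0.0726). On day 7 it was 0.44 ± 0.14 (SE) (limma adjusted p = 0.438). Without naive replicate 1, the muscle-high naive array, the day 14 difference was 0.71 (limma adjusted p = 0.0311), and without naive replicate 2 it was 0.73 (limma adjusted p = 0.0457), so that it passed in both. With the muscle mean as a covariate it was 0.65 (limma adjusted p = 0.0412). Of all 23 alternatives the difference passed only in these 3, with limma adjusted p from 0.0311 to 0.781. With the 3' minus 5' signal as a covariate it was 0.36 ± 0.12 (SE) (limma adjusted p = 0.362), and the lowest value of this probe set belonged to naive replicate 4, the array with the highest 3' minus 5' signal. Within AJ the means were 7.83 on day 14 (2 rats) and 7.76 on day 7 (5 rats), against 7.39 in naive rats (2).

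The other Klc1 probe sets did not all go the same way. Probe set 1375229_at had a lowest, median and highest value of 5.26, 5.38 and 5.54 on day 14 and of 5.0, 5.21 and 5.41 on day 7, with naive values of 5.38, 4.90, 5.02, 5.17 and 5.07. Its day 14 difference was 0.27 ± 0.08 (SE) (limma adjusted p = 0.105), and without naive replicate 1 it was 0.34 and passed (limma adjusted p = 0.0431). This probe set was nearly dim, with a mean of 5.24 over all arrays, where probe sets below 5.21 are taken as dim. Its naive and day 7 means of 5.11 and 5.20 lay below that level, and its day 14 mean of 5.38 above it, which limits this reading. Probe set 1399126_at went the other way, at -0.21 ± 0.12 (SE) on day 14 (limma adjusted p = 0.323) and -0.37 ± 0.12 (SE) on day 7 (limma adjusted p = 0.426). On it naive replicate 1 had 9.25, lower than nearly all operated rats, and the other naive rats 9.78, 9.96, 9.93 and 9.72. The brightest probe set, 1370886_a_at, had the smallest naive SD of all motor probe sets (0.034), and it differed by -0.03 on day 14, with an interval of -0.11 to 0.06, and by -0.03 on day 7.

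Klc2 and Klc4, light chains that are also found outside neurons, had lower means in operated rats without passing the test. Klc2 differed by -0.23 ± 0.09 (SE) on day 14 (limma adjusted p = 0.175) and by -0.17 on day 7. Klc4 differed by -0.31 ± 0.11 (SE) on day 14 (limma adjusted p = 0.157) and by -0.17 on day 7. For both, the naive SD (0.29 and 0.30) exceeded the day 14 SD (0.07 and 0.14). Naive replicates 3 and 4, the arrays of highest 3' minus 5' signal, were the highest naive arrays, at 11.50 and 11.71 for Klc2 and at 9.09 and 9.33 for Klc4. With that signal as a covariate the day 14 differences were -0.07 for Klc2 and -0.12 for Klc4. Without naive replicate 4 they were -0.13 and -0.20, and on day 7 leaving out 1 array brought them to as little as -0.07 and -0.06. The Klc3 probe sets differed by -0.07 and 0.11 on day 14.

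**Figure D3:**
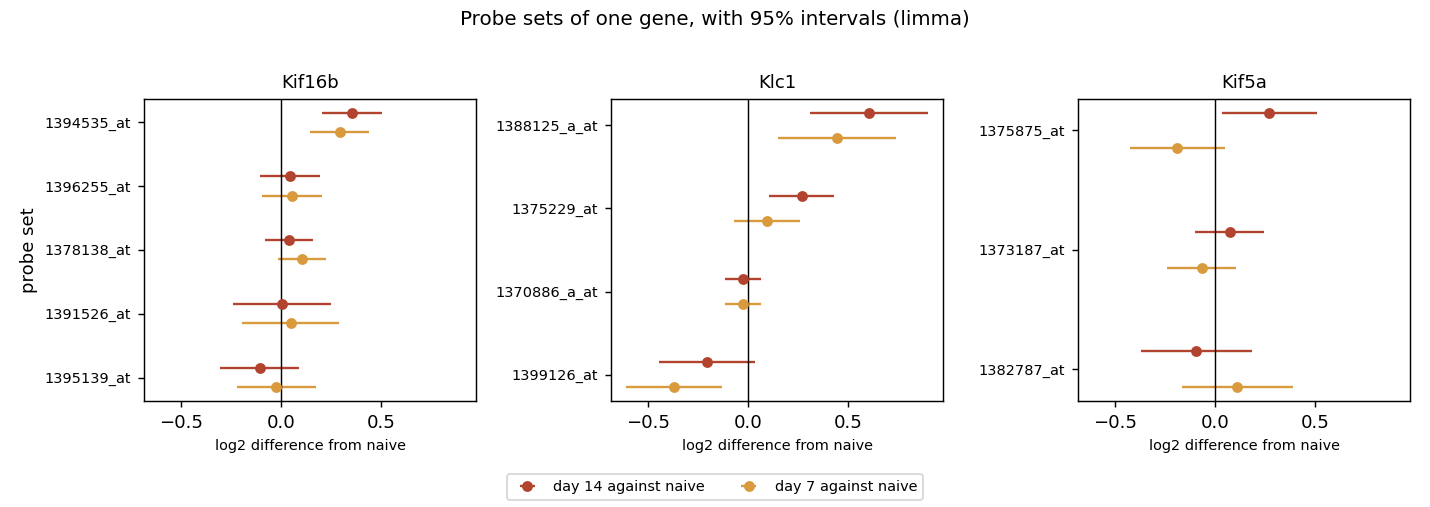
Log2 difference from naive of each probe set of Kif16b, Klc1 and Kif5a, with 95% intervals from limma, for day 14 (red) and day 7 (ochre). Within Klc1 the day 14 differences run from -0.21 to 0.61, and within Kif16b 1394535_at stands at 0.36 while the others lie between -0.11 and 0.04.

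Kif16b, the gene of the called probe set, and Klc1, the gene of the largest difference, are shown here by the 250 bases before their annotated starts, from RefSeq in build GRCr8. Capitals mark GC boxes (GGGCGG, on either strand), the short element bound by Sp factors, and CRE half-sites (TGACG, on either strand), the element bound by CREB. The Kif16b window lies on the minus strand at chr3:150707586-150707835 and the Klc1 window on the plus strand at chr6:136644350-136644599.
Kif16b: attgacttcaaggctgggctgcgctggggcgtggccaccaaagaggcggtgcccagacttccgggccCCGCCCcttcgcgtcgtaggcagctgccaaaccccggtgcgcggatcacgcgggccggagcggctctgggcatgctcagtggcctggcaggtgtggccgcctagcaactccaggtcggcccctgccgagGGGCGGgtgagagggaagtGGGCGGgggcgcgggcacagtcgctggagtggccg
Klc1: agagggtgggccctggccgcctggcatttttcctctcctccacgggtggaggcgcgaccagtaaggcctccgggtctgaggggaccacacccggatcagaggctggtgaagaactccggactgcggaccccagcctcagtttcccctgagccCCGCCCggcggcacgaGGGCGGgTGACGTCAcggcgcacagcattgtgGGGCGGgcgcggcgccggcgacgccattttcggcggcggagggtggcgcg
The Kif16b window held 3 GC boxes and no CRE half-site, and the Klc1 window held 3 GC boxes and 2 CRE half-sites that overlap each other. Of the other motifs searched on both strands, neither window held the AP-1 motif TGANTCA, which Jun and Fos proteins bind. Neither held the CCAAT box, searched by its letters CCAAT, and neither held the element called CHR, spelled TTTGAA. Such matches describe the letters only.

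Windows were found for 37 of the 43 motor genes. GC boxes stood in 64.9% of them, beside 30.5% of all 33469 promoter windows of that length, which were not selected by kind of gene. CRE half-sites stood in 35.1% beside 18.2%, CCAAT boxes in 40.5% beside 34%, AP-1 motifs in 8.11% beside 6.34% and CHR elements in 18.9% beside 16.2%. The motor windows had a median GC content of 63.2%, against 51.2% over all windows. What part GC content has in these motif shares was not tested. The CHR element, known from cell-cycle genes, stood in 44.4% of the 9 mitotic kinesin windows and in 10.7% of the other 28 motor windows.

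Kinesin-1 is the main outward motor of axons, and Kif5a, Kif5b and Kif5c are its heavy chains. Kif5a is neuronal and carries neurofilaments among other cargo, and Kif5a mutations cause hereditary motor and sensory axon disease in people. The 3 genes had 8 probe sets, of which none passed in any comparison. Kif5a probe set 1375875_at had 8.80, 8.40, 8.37, 8.58, 8.52, 8.54 and 8.72 on day 14, with 7.96, 7.89, 8.67, 8.14, 8.01, 7.88 and 8.16 on day 7 and 8.04, 8.26, 8.44, 8.30 and 8.40 in naive rats. All day 14 rats lay above all day 7 rats except day 7 replicate 3. Between day 14 and day 7 the difference was 0.46 ± 0.10 (SE), with a 95% interval of 0.24 to 0.68 and a fold of 1.38, but it did not pass (limma adjusted p = 0.25). Without day 7 replicate 3 it was 0.55 ± 0.08 (SE) and was the 1 probe set of the whole table to pass (limma adjusted p = 0.0363). Against naive the same probe set differed by 0.27 ± 0.11 (SE) on day 14 (limma adjusted p = 0.201) and by -0.19 ± 0.11 (SE) on day 7 (limma adjusted p = 0.672). Within AJ its mean was 8.48 on day 14 (2 rats) and 8.19 on day 7 (5 rats).

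The other Kif5a probe sets showed less. Between day 14 and day 7, 1373187_at differed by 0.14 with an interval of -0.02 to 0.30, and 1382787_at by -0.21 with an interval of -0.46 to 0.05. Kif5c, the other heavy chain enriched in neurons, ranged on probe set 1380172_at from 11.94 over a median of 12.46 to 12.54 on day 14 and from 11.94 over 12.36 to 12.61 on day 7. Naive rats had 12.18, 12.24, 11.90, 11.85 and 12.34. On day 14, 6 of 7 rats lay above every naive rat, and replicate 3 lay apart at 11.94. The difference was 0.28 ± 0.12 (SE) on day 14 (limma adjusted p = 0.214) and 0.24 ± 0.12 (SE) on day 7 (limma adjusted p = 0.598), and without day 14 replicate 3 it was 0.35 (limma adjusted p = 0.150). The remaining Kif5c probe sets differed by 0.05 and 0.02 on day 14. Kif5b, the heavy chain of most cell types, differed by -0.01 on its brighter probe set, with an interval of -0.19 to 0.17, and by -0.14 on the other.

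Outside the families above and the mitotic kinesins, 11 probe sets of 6 kinesin genes were measured, and none passed in any comparison. Kif2a shortens microtubules, and in mice its loss lets collateral axon branches overgrow. Its 3 probe sets differed by 0.05 to 0.06 on day 14 and by 0.02 to 0.18 on day 7, and for the brightest, 1383156_at, the day 14 interval was -0.06 to 0.16. Kif21a, which restrains microtubule growth at the cell edge, differed by 0.08 on day 14 (interval -0.06 to 0.21) and by 0.00 on day 7. Kif26b, a kinesin without motor activity that acts in cell adhesion and Wnt signalling, had 4 probe sets between -0.19 and 0.01 on day 14. The lowest of them, 1376617_at, differed by -0.19 on both days, with intervals of -0.40 to 0.02. Kif7 differed by -0.19 on day 14 (interval -0.46 to 0.07) and by -0.08 on day 7. None of the 11 probe sets in this group had an unadjusted p under 0.05 against naive at either time, and Kif12 was higher on day 14 than on day 7 by 0.15 without passing (limma adjusted p = 0.393).

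The dynein motor itself differed little. Dync1h1, the heavy chain that walks on the microtubule, had a lowest, median and highest value of 11.93, 12.24 and 12.41 on day 14 and of 11.91, 12.05 and 12.45 on day 7, against 11.88, 12.12 and 12.41 in naive rats. Its difference was 0.03 on day 14, with an interval of -0.20 to 0.25, and -0.04 on day 7. The intermediate chains Dync1i1 and Dync1i2, which join the motor to dynactin, differed by -0.05 and -0.08 on day 14. The light intermediate chain Dync1li2, which binds cargo adaptors, differed by 0.00 on day 14, with a narrow interval of -0.09 to 0.09.

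Its paralog Dync1li1 was the exception in value, on 1 of its 2 probe sets. On 1370576_at the lowest, median and highest values were 9.32, 9.96 and 10.14 on day 14 and 9.25, 10.15 and 10.49 on day 7, and naive rats had 9.48, 9.58, 9.54, 9.13 and 9.87. On day 14, 5 of 7 rats and on day 7, 4 of 7 rats lay above every naive rat. The differences of 0.37 ± 0.18 (SE) on day 14 (limma adjusted p = 0.251) and 0.44 ± 0.18 (SE) on day 7 (limma adjusted p = 0.504) did not pass. With the code letters as a block the day 14 difference was 0.08 (limma adjusted p = 0.980). The other Dync1li1 probe set, 1399090_at, differed by -0.05 on day 14, with an interval of -0.24 to 0.14, and by -0.02 on day 7. The light chains Dynll2, Dynlt1 and Dynlt3, small cargo-linking or structural subunits, lay between -0.01 and 0.07 on day 14 and between -0.05 and 0.11 on day 7.

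Dynactin lets dynein run over long distances and binds it to cargo. Dctn1, its largest subunit, which grips the microtubule, had values from 11.81 over a median of 11.91 to 12.02 on day 14 and from 11.89 over 12.01 to 12.10 on day 7, and naive values of 12.09, 12.10, 11.99, 12.24 and 12.01. On day 14, 4 of 7 rats lay below every naive rat. The difference was -0.15 ± 0.06 (SE) on day 14 (limma adjusted p = 0.158) and -0.08 ± 0.06 (SE) on day 7. Dctn2, also called dynamitin, which holds the arm of the complex to its filament, differed by -0.09 on day 14. Dctn4, Dctn5 and the brighter probe set of Dctn6, subunits of the pointed end, differed by -0.05, -0.05 and 0.01. In all, 5 of the 6 dynactin probe sets lay below naive in mean on day 14, and 3 of 6 did on day 7. Over the whole table, 17519 of 31042 probe sets lay above naive in mean on day 14 and 16454 on day 7. Of the 6 day 14 intervals only that of Dctn1 left out 0, so no shared direction is read. The dimmer Dctn6 probe set 1396392_at was lower on day 14 than on day 7 by 0.28 ± 0.09 (SE), which did not pass (limma adjusted p = 0.324).

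**Figure D4:**
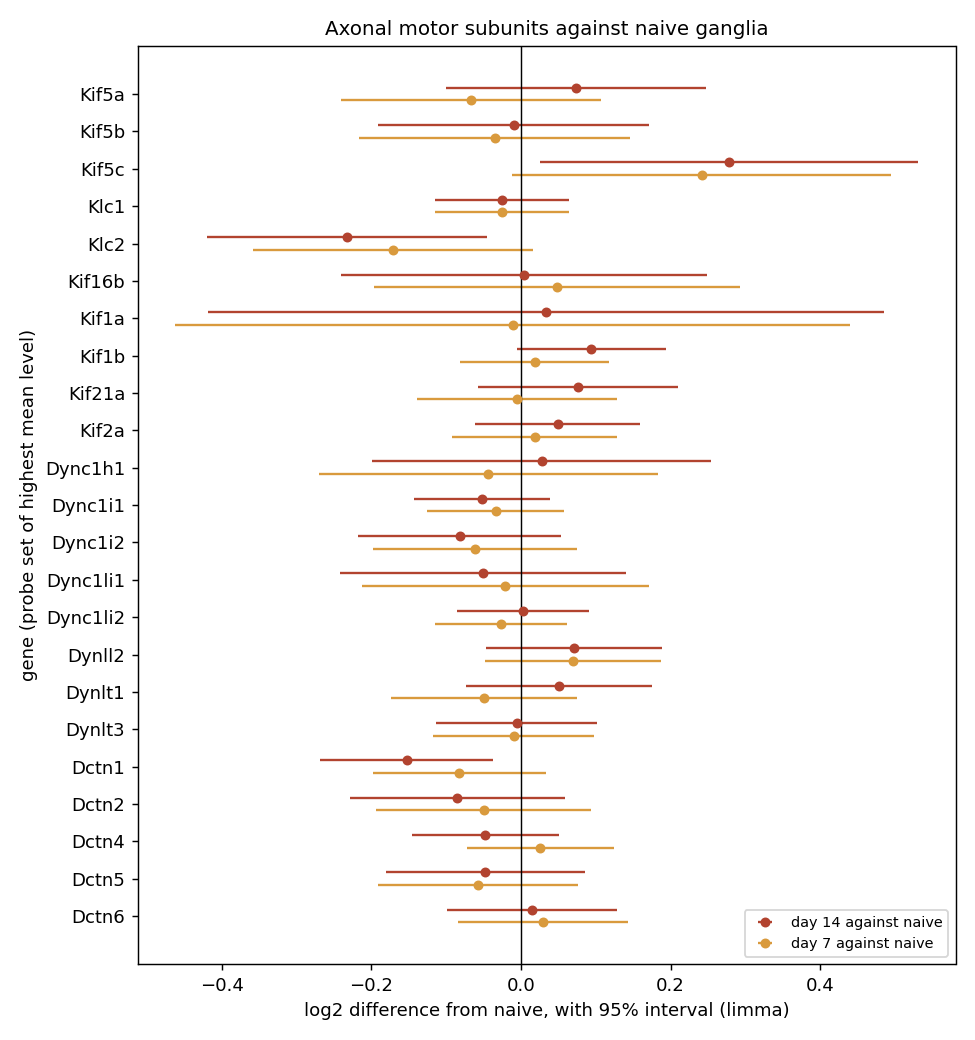
Log2 difference from naive with its 95% interval (limma) for the 23 axonal motor genes of a fixed list of 27 that had a member, each by its probe set of highest mean level, for day 14 (red) and day 7 (ochre). Most intervals include 0 and lie within 0.3 log2 units of it. On day 14 that of Kif5c lies above 0, and those of Klc2 and Dctn1 lie below it. The Kif1b probe set is dim, with a mean level of 4.46.

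Several motor probe sets varied widely between rats of 1 group. Probe sets 1384133_at of Kif1a, 1397505_at of Kif1a, 1370576_at of Dync1li1 and 1380172_at of Kif5c, chosen after their values were seen, were low together in some rats, operated and naive. Day 14 replicate 3 had 9.85, 7.46, 9.32 and 11.94 on them in this order, where the day 14 medians were 10.79, 8.12, 9.96 and 12.46. Day 7 replicate 6 had 10.15, 6.80, 9.25 and 11.94, where the day 7 medians were 10.79, 8.33, 10.15 and 12.36. Day 7 replicate 1 was also low, at 10.01, 7.62, 9.69 and 12.11. Naive replicate 4 had 10.55, 7.61, 9.13 and 11.85, where the naive medians were 10.64, 7.71, 9.54 and 12.18. Day 7 replicate 2 lay above the day 7 medians on all of them, at 11.09, 8.36, 10.18 and 12.53. The injured-neuron mean was 11.34 in day 14 replicate 3, 9.17 in day 7 replicate 6 and 9.72 in day 7 replicate 1, and the sensory neuron mean was 12.28, 12.41 and 12.42. In naive replicate 4 these means were 7.92 and 12.41. Day 7 replicate 2 had the highest injured-neuron mean of day 7 (10.88), where the day 7 median was 9.17. What part these have in the low motor values was not tested.

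The mitotic kinesins build the spindle and divide the cell, and neurons no longer divide. Their 13 probe sets held no call, and their median difference was 0.02 on day 14 and 0.04 on day 7. Several were dim, which limits what these medians show. Kif2c 1369380_at, Kif18a, Kif11 1385619_at, Kif18b and Kif23 1395828_at had mean levels of 4.75, 4.91, 4.97, 5.06 and 5.11, below the dim level of 5.21. Kif15, a spindle motor, differed by -0.33 ± 0.14 (SE) on day 14 (limma adjusted p = 0.210). Without naive replicate 4, its highest naive array at 6.80, the Kif15 difference was -0.21, and with the 3' minus 5' signal as a covariate it was -0.09. Kif20b, needed for cytokinesis, differed by -0.15 ± 0.08 (SE) (limma adjusted p = 0.275). Kif22, which moves chromosomes and is named here after its values were seen, differed by 0.36 ± 0.17 (SE) on day 14 (limma adjusted p = 0.236), and its 7 rats spread from 7.67 to 8.69 against 7.69 to 8.06 in naive rats. The 8 marker genes of dividing cells had list means of 5.88 to 6.10 on day 14 and of 5.92 to 6.20 on day 7, against 5.80 to 6.52 in naive rats.

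Motors need adaptors to reach their cargo and microtubules to walk on. Of 37 listed adaptor and regulator genes, 33 were measured by 49 probe sets, and 1 probe set passed on day 14 against naive, as lower. It was 1374462_at of Kifap3, the accessory subunit of heterotrimeric kinesin-2, at -0.48 ± 0.09 (SE) (limma adjusted p = 0.0338), where over all probe sets 0.113% passed as lower. With the code letters as a block, or with the 3' minus 5' signal as a covariate, 0 probe sets of the whole table passed by limma, so this call was lost in both. It differed by -0.25 on day 7, and the other Kifap3 probe sets by -0.19 and 0.15 on day 14. Pafah1b1, also called Lis1, which regulates dynein, differed by 0.00 and 0.10 on day 14. Hook1, a dynein adaptor, differed by -0.36 (limma adjusted p = 0.101) and Sybu, which links kinesin-1 to syntaxin vesicles, by 0.21 (limma adjusted p = 0.176). The widest difference was that of the Spag9 probe set 1382020_at, at -0.63 ± 0.29 (SE) (limma adjusted p = 0.233). At an unadjusted p under 0.05, 5 of the 49 were higher and 7 lower on day 14, where 10.9% of all probe sets were higher and 8.79% lower. The median of the 49 was -0.02 on day 14 and -0.03 on day 7.

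The track genes comprise tubulins, microtubule-associated proteins and the enzymes that modify or cut microtubules. Of 39 listed genes, 36 were measured by 66 probe sets, and none passed in any comparison. At an unadjusted p under 0.05, 3 were higher and 4 lower on day 14, where 10.9% of all probe sets were higher and 8.79% lower. On day 7, 5 were higher and none lower, where 3.69% of all probe sets were higher and 5% lower. The median of the 66 was 0.03 on day 14 and 0.01 on day 7. Their differences from naive ran from -0.29 to 0.54 on day 14 and from -0.23 to 0.44 on day 7. Mapre1, also called EB1, which marks growing microtubule ends, differed by 0.25 and 0.26 on 2 probe sets on day 7 (limma adjusted p = 0.351 and 0.455) and by 0.05 on its brightest. Tubb3, the neuronal tubulin, differed by 0.03 on its brighter probe set on day 14, and Stmn2, which frees tubulin in growing axons, by 0.03 and 0.11.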

How the data were processed

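Expression was measured on 19 Affymetrix rat arrays, 1 per ganglion. Per the labels, RNA went through 2 rounds of linear amplification and 1 further naive array was removed after quality control (not analysed here). The authors deposited log2 expression values per probe set, made with RMA per the submitters' processing notes, which also name limma; their versions are not given in the sources at hand. RMA forces 1 distribution on all arrays, so a shift of most transcripts would be hidden.

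From these values, 31042 probe sets other than 57 controls were fitted with limma 3.58.1 in R 4.3.3 (lmFit and eBayes, 3 groups in 1 fit, Benjamini-Hochberg adjustment within a comparison, threshold 0.05). Motifs and plots used Python 3.11.15, numpy 2.4.6, pandas 2.3.3 and matplotlib 3.10.9. Symbols came from the platform annotation, updated through RefSeq of GRCr8. The table holds no column outside the 19 samples. P-values measure the spread between rats, each a separate animal per the labels.

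Members, gene lists and tests were chosen with earlier results of these data known, among them the Kif16b call. Named probe sets were those called, the 5 of smallest p in each direction and comparison, the brightest probe set of 27 fixed axonal genes, and those of largest and smallest naive SD. The same rule's highest and lowest levels were not used, since levels of different probe sets do not compare. A filter on dim probe sets (mean below 5.21) would keep 60 of the 71 motor probe sets and leave out 11. Alternatives covered that filter, renormalization, moderation, weights, samples in the fit, 1 probe set per gene, blocks, covariates, threshold and leaving out each array.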

Additional observations from a re-analysis of the deposited data

Results flagged for a closer look

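In 8 of 126 groups of arrays over the named probe sets, 1 array stood apart from its group by Dixon's criterion, where chance gives about 1 in 20, or 6.3 groups. Of these, 4 concerned day 14 replicate 3, the array with the lowest sensory neuron mean (12.28) and the highest injured-neuron mean (11.34), whose part in them was not tested. It was lowest of its group on the dynein light intermediate chain Dync1li1 1370576_at (9.32, the next rat 9.84), on Kif5a 1373187_at (11.63, the next 11.87), on Kif5c 1380172_at (11.94, the next 12.36) and on the dynein intermediate chain Dync1i2 (12.26, the next 12.45). Without that array, the day 14 difference from naive was 0.46 for Dync1li1 1370576_at, beside 0.37 with it. For Kif5a 1373187_at it was 0.12 beside 0.07, and for Dync1i2 -0.05 beside -0.08.

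Day 7 replicate 3 was highest of its group on Kif5a 1375875_at (8.67, the next 8.16), and its removal is what brought the day 14 against day 7 difference of that probe set past the threshold. Among naive rats, replicate 5 was highest on Kif20b (5.98, the next 5.76), replicate 3 lowest on the dynactin subunit Dctn4 (8.68, the next 8.77) and replicate 4 lowest on Kif1b (4.29, the next 4.43).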

How the results depend on the processing

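The number of motor probe sets called on day 14 against naive was 1, and 43 over all probe sets. It fell to 0 with arrays centred on their median, with an intensity trend and robust moderation, with array weights (76 over all), with only the 2 groups compared in the fit (13), with 1 probe set per gene (where Kif16b 1394535_at is not the brightest of its gene and drops out), with the animal code prefix as a block (0), with the 3' minus 5' signal as a covariate (0) and without the 3 arrays high in skeletal muscle (12). It was 2 with the skeletal muscle mean as a covariate (140) and 2 at a threshold of 0.10 (729). Leaving out 1 array gave 0 to 3 motor calls and 5 to 401 over all, with 3 without naive replicate 1 (Kif16b and 2 Klc1 probe sets). With the replicate number as a block it was 0, and 9 over all (Kif16b 1394535_at at 0.34, limma adjusted p = 0.145). Same-numbered rats of day 14 and naive had correlated deviations of -0.21 to 0.22 over 5 pairs. The range was -0.15 to 0.33 over 5 pairs of day 7 and naive, and -0.26 to 0.28 over 7 pairs of day 14 and day 7. Both signs occurred in each comparison, so the numbers were not taken as pairs. On day 7 against naive the count was 0 in every setting tried, and between day 14 and day 7 it was 0 to 1 on leaving out 1 array. Under cyclic loess renormalization the median motor difference turned to -0.012 on day 14 against naive and to -0.0085 between day 14 and day 7. Over all settings the median kept its sign in 16 of 24 on day 14 against naive (-0.0055 to 0.024 on leaving out 1 array), in 22 of 24 on day 7 against naive (-0.015 to 0.0047) and in 23 of 26 between day 14 and day 7 (-0.0064 to 0.022), so no direction is read from it. The only named difference called was that of Kif16b 1394535_at on day 14 against naive, and it lost the call in 18 of its 23 alternatives. Of 3066 values for all named differences under the alternatives, 5 gained a call and 5 shifted by more than the spread between rats. Those 5 shifts all came with the animal code prefix as a block. No called difference changed sign, but uncalled ones did in 201 values, spread over 45 of the 126 differences. The cause of these changes was not tested. The 11 dimmest motor probe sets have mean levels below 5.21, which limits what can be read of them.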
